A study of Mus musculus with 16 samples.

Results

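The mRNA levels of 8 genes that write, maintain or erase cytosine methylation were measured in mouse P19 cells, an embryonal carcinoma line, in which the let-7a microRNA was raised or the RNA-binding protein Sfpq was knocked down. The genes were chosen by name: the maintenance methyltransferase Dnmt1 and its recruiter Uhrf1, the de novo enzymes Dnmt3a and Dnmt3b with their cofactor Dnmt3l, and the dioxygenases Tet1, Tet2 and Tet3. All 8 were among the 19568 genes and transcripts tested, and 16 of their 17 array probes passed the filter on dim probes. The exception was Tet3 probe A_51_P199339, which was well above background on 6 of 16 arrays. Each gene has its own probes, so levels were compared between conditions and never between genes.

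Cells were transfected with a control, with a let-7a mimic (let-7a), with a pool of 4 siRNAs against Sfpq (siSfpq), or with mimic and siRNA together (let-7a+siSfpq), at 24 nM per the methods, and RNA was taken after 48 h. The labels do not say what the control transfection contained. Each condition had 4 arrays. Arrays 1 and 2 of a condition differed little at probes with repeated spots (SD of the differences 0.075 to 0.109 on the log2 scale). Single spots of such a probe differed by 0.136 to 0.179 within an array, but array values average those spots, so the figures are not like for like. At gene level the SD was 0.177 to 0.291 between arrays 1 and 2. It was 0.288 to 0.390 between arrays 1 and 4 and 0.431 to 0.681 between arrays 3 and 4. By choice the pair was averaged and taken as 1 sample, giving 3 samples a condition. The methods describe replicates of transfected cells and do not say whether these were separate cultures or transfection days, so p-values measure the spread between these samples, which may be technical in part. All conditions share the parental line and a transient transfection.

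DNA methylation in mammals sits mainly on CpG dinucleotides. After replication, Uhrf1 binds hemimethylated CpG and brings in Dnmt1, which copies the mark to the new strand, whereas Dnmt3a and Dnmt3b place new marks and Dnmt3l, which has no catalytic activity of its own, stimulates them in germ cells and early embryos. Tet enzymes oxidise 5-methylcytosine, which opens the way to its removal. Pluripotent cells are known for high levels of the de novo enzymes, and let-7 microRNAs are known to rise as such cells differentiate.

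The sequences that the comparisons turn on are given first. The mature microRNA supplied by the mimic is shown with its seed, bases 2 to 8, in capitals, since the seed is the part that pairs with target mRNAs. The sequence is from RefSeq (GRCm38.p6).
mmu-let-7a-5p: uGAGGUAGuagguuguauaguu
Both maintenance genes had a probe that crosses an exon junction, since the 60 bases of each span 369 and 654 genomic bases in mm9, the build the scanner files name. They lie at chr9:20711973-20712341 on the minus strand and at chr17:56451668-56452321 on the plus strand, and they are shown because they read spliced mRNA.
Dnmt1 A_51_P195573: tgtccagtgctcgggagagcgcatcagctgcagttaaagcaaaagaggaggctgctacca
Uhrf1 A_66_P120074: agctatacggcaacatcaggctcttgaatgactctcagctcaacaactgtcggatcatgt

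Promoter windows of 300 bases, 250 before and 50 after an annotated start, were matched by symbol for 8 of 8 genes in the RefSeq table (GRCm38.p6), with 15 starts in all. Dnmt3l, whose level moved most, and Dnmt3a, whose mean was lower in siSfpq where that of Dnmt3l was higher, are shown with CpG in capitals. The letters searched were CG, which read the same on both strands, and 94.6% of the 32851 windows in the table held at least 1.
Dnmt3l start 1, chr10:78042037-78042336, plus strand: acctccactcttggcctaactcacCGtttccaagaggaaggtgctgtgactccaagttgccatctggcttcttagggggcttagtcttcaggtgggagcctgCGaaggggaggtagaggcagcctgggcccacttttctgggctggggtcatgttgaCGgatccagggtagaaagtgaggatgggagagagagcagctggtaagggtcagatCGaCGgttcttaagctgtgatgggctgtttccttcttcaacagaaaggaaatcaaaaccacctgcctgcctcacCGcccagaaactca
Dnmt3l start 2, chr10:78049592-78049891, plus strand: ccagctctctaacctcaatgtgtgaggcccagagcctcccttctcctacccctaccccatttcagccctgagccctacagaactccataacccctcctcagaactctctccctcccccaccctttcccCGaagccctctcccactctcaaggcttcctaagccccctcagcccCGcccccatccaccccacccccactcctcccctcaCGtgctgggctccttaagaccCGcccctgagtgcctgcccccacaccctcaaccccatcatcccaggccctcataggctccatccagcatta
Dnmt3l start 3, chr10:78055085-78055384, plus strand: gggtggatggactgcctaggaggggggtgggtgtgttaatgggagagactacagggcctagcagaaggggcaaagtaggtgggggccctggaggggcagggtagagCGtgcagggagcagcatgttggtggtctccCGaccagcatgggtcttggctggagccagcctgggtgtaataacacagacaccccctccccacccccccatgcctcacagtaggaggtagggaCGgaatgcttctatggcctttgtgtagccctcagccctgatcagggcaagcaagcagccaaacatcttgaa
Dnmt3a start 1, chr12:3806730-3807029, plus strand: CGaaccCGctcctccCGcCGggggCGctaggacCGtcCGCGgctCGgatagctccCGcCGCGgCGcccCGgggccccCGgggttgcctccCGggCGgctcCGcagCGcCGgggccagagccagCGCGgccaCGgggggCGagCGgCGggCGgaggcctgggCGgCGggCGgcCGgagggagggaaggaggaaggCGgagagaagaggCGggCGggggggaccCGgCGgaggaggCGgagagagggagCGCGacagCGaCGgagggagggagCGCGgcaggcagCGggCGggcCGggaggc
The Dnmt3l windows held 6, 4 and 3 CpG against a median of 7 over the table, and the first Dnmt3a window held 46. Over the other starts the range ran from 2 CpG at 1 of the 3 Dnmt1 starts to 57 at the Tet2 start. Which start these cells used was not measured, and neither was methylation.

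Sfpq itself, the target of the siRNA pool, had log2 signals of 12.07, 11.98 and 11.99 in control, in the order replicates 1 and 2, replicate 3 and replicate 4, which is kept below. In siSfpq the signals were 10.56, 11.47 and 10.61. The siSfpq samples were all below the control samples (difference -1.13 ± 0.19 SE, 2.19-fold, limma adjusted p = 0.00829), and the siSfpq replicate 3 stood apart, with a difference of -0.51 against -1.51 and -1.37 in the others. With let-7a+siSfpq the signals were 11.31, 11.50 and 11.40, which is a difference of -0.57 from let-7a alone (adjusted p = 0.156). Those groups did not overlap, and within replicate numbers the differences were -0.73, -0.50 and -0.49. Sfpq was 0.53 higher with let-7a+siSfpq than with siSfpq (adjusted p = 0.105), by 0.76, 0.03 and 0.79 within replicate numbers. In comparisons of let-7a+siSfpq with siSfpq, let-7a and a difference in knockdown depth cannot be told apart. Of the 19568 genes, 1242 passed an adjusted p under 0.05 for let-7a against control, 2443 for siSfpq against control and 1794 for let-7a+siSfpq against siSfpq, and genes past that threshold are named as called. Embryonal carcinoma markers were all detected, 6 of 6, and their mean level ran from 11.76 to 11.97 in control, 11.27 to 11.71 in let-7a, 11.83 to 11.93 in siSfpq and 11.56 to 11.67 in let-7a+siSfpq. Of the 6, 3 fell with let-7a, and 1 rose and 1 fell with siSfpq. Neuron markers moved with both agents. Of 5, 4 rose with let-7a and 5 fell with siSfpq, and their mean level was 10.60 to 11.00 in control, 11.69 to 12.24 in let-7a, 9.52 to 9.98 in siSfpq and 10.80 to 10.86 in let-7a+siSfpq. Markers of other cell types were detected in part. All 4 fibroblast markers were tested, with mean levels of 9.42 to 9.43 in control, 9.64 to 9.74 in let-7a, 9.48 to 9.80 in siSfpq and 9.80 to 10.03 in let-7a+siSfpq, and Col1a2 rose with let-7a (0.71, adjusted p = 0.0403) and Dcn with siSfpq (1.12, adjusted p = 0.0078). Dcn was also higher with let-7a+siSfpq than in control (1.07, adjusted p = 0.0206) and let-7a (1.18, adjusted p = 0.0122). For let-7a+siSfpq against siSfpq, 2 of 6 embryonal carcinoma markers were lower. In that comparison 4 of 5 neuron and 1 of 4 fibroblast markers were higher. With the block, described below, 2 of the 4 fibroblast markers rose and 2 fell with siSfpq. The block called 36.8% of all genes with siSfpq, 20.9% with let-7a and 7.49% with let-7a+siSfpq against control. Of 4 endoderm markers, 2 were tested, Gata4 and Gata6, with mean levels of 5.50 to 5.62 in control, 5.70 to 6.40 in let-7a, 5.77 to 6.52 in siSfpq and 6.38 to 6.55 in let-7a+siSfpq. Neither was called, and with the block Gata6 rose with let-7a (1.27, adjusted p = 0.000497) and Gata4 with siSfpq (0.81, adjusted p = 0.0349). Of 5 macrophage markers, Csf1r and Cd68 were tested and 0 were called, with mean levels of 7.74 to 7.96 in control and 7.79 to 8.58 over the other conditions, and with the block Cd68 rose with siSfpq (0.81, adjusted p = 0.0058). Of 3 germ cell markers, Ddx4 and Sycp3 were tested and 0 were called, with mean levels of 4.55 to 5.06 in control and 4.75 to 6.72 over the others. With the block Sycp3 rose with siSfpq (2.60, adjusted p = 0.00527) and with let-7a+siSfpq against control (1.83, adjusted p = 0.0491). Sox17, Lyz2 and Dazl were well above background on 0 arrays. The other untested markers were so on up to 8 arrays for Adgre1, 4 for Ptprc and 1 for Afp. In these bulk samples fewer cells of a type and less RNA per cell cannot be told apart, and the part of the marker shifts in the results below was not tested.

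Replicate numbers paired the samples. Same-numbered samples of different conditions deviated together (r 0.293 to 0.713 over 18 pairs), so the fit with the replicate number as a block is given beside the results that it changed.

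**Figure D1:**
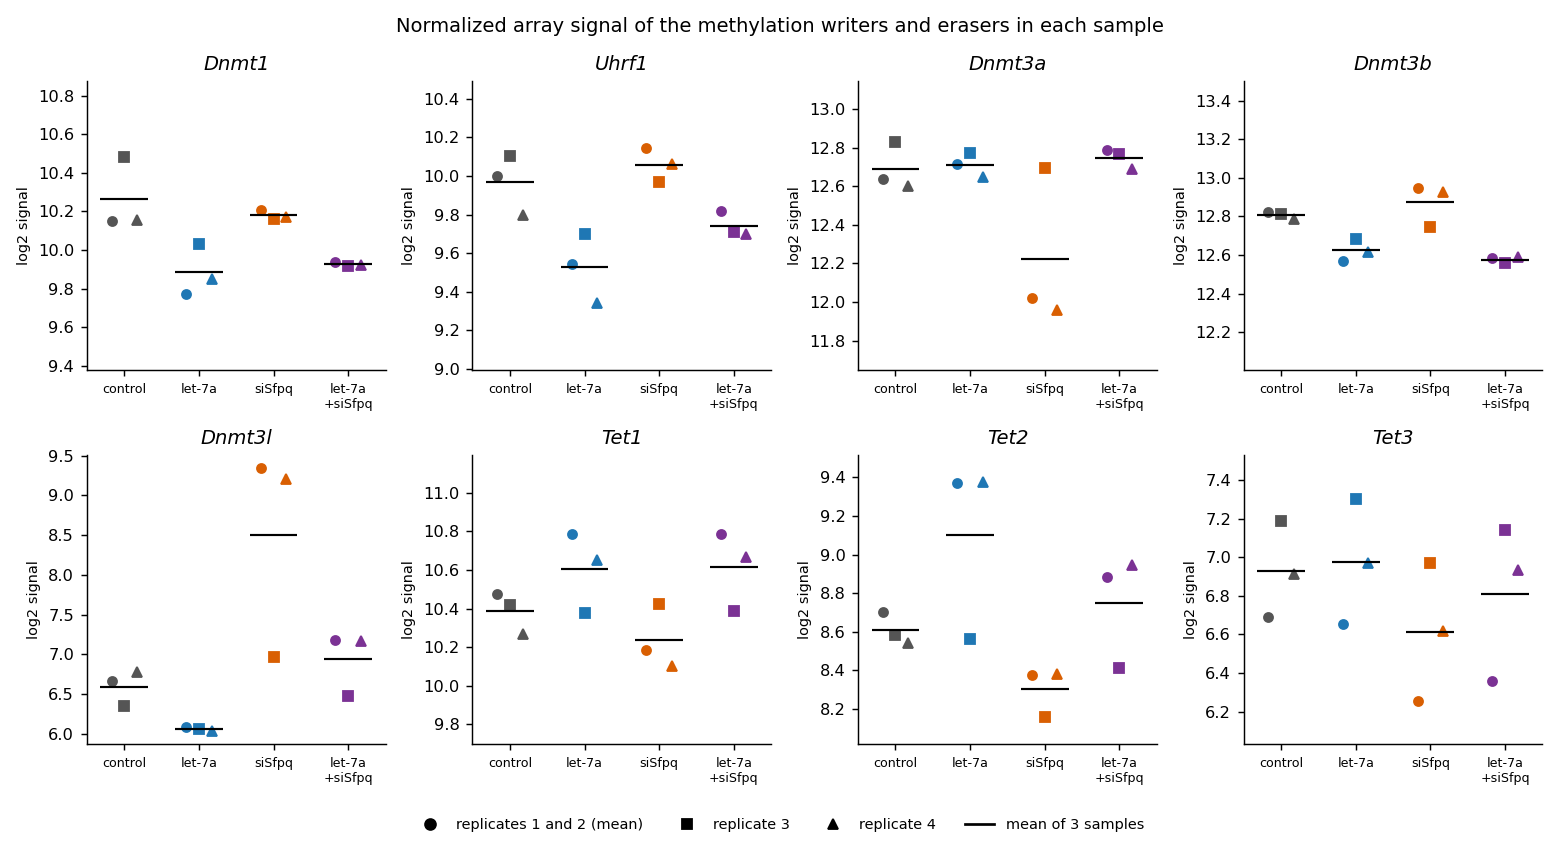
Quantile-normalized log2 array signal (y axis) of each of the 8 genes in the 4 conditions (x axis), with 1 symbol per sample and a line at the mean of 3 samples. The y range differs between panels. Dnmt3l in siSfpq lies between 6.96 and 9.34, all above control, whereas Dnmt1, Uhrf1, Dnmt3b and Dnmt3l in let-7a all lie below control.

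The maintenance pair was lower with let-7a in every sample. Dnmt1 (chr9:20907206-20959888, GRCm38.p6) had log2 signals of 10.15, 10.48 and 10.16 in control and 9.77, 10.03 and 9.85 in let-7a. Uhrf1 (chr17:56303337-56323486) had 10.00, 10.10 and 9.80 in control and 9.54, 9.70 and 9.34 in let-7a. For both genes the let-7a samples lay below the control samples with no overlap. The difference was -0.38 ± 0.11 (SE, n = 3 per group) for Dnmt1, with a limma adjusted p of 0.0776, and -0.44 ± 0.12 for Uhrf1, with a limma adjusted p of 0.0562. Neither passed the threshold in that fit, and both did with the replicate block (adjusted p = 0.017 for Dnmt1 and 0.0116 for Uhrf1). Without a block, limma called 0 of the 8 genes for let-7a against control, where it called 6.35% of all genes, and 4 of the 8 had an unadjusted p under 0.05, against 19.9% of all genes. With the block it called 3 of 8, where it called 20.9% of all genes. The third was Tet2. Without replicate 3, which leaves 2 samples per condition, 6 of 8 were called, all but Dnmt3a and Tet3, beside 28% of all genes.

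With siSfpq the maintenance pair differed from control by less than the spread between samples. Dnmt1 in siSfpq had signals of 10.21, 10.16 and 10.17, and the difference from control was -0.08 (95% interval -0.33 to 0.17). Uhrf1 had 10.14, 9.97 and 10.06, with a difference of 0.09 (95% interval -0.18 to 0.36). When both agents were present, Dnmt1 had 9.94, 9.92 and 9.92 and Uhrf1 9.82, 9.71 and 9.70. These samples lay below every siSfpq sample for both genes, and the differences of -0.25 for Dnmt1 and -0.32 for Uhrf1 had limma adjusted p of 0.178 and 0.12. The block left Dnmt1 above the threshold (adjusted p = 0.0561) and took Uhrf1 past it (adjusted p = 0.0323). The 2 Uhrf1 probes moved the same way with let-7a, by -0.57 at the junction probe printed above and by -0.31 at A_55_P2035286. Dnmt1 had 1 probe.

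Dnmt3l rose with siSfpq. The cofactor of the de novo enzymes (chr10:78042287-78063622) had log2 signals of 6.66, 6.35 and 6.77 in control and 9.34, 6.96 and 9.21 in siSfpq. Every siSfpq sample lay above every control sample, and replicate 3 was far below the other siSfpq samples. The difference was 1.91 ± 0.50 (SE, n = 3 per group), or 3.77-fold, with a limma adjusted p of 0.031. Dnmt3l was the only one of the 8 genes called for siSfpq against control in the fit without a block, where 12.5% of all genes were called and 5.73% were called higher. Within replicate numbers the differences were 2.68, 0.62 and 2.44. Without replicate 3 the difference was 2.56 ± 0.10. The call was lost without replicate 4 (1.65, adjusted p = 0.564), with control and siSfpq fitted alone (adjusted p = 0.119) and with no filter on dim probes (adjusted p = 0.0733). Dnmt3l was read by 1 probe, which was well above background on 16 of 16 arrays.

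The same gene sat lowest with let-7a. Its signals were 6.09, 6.06 and 6.03 in let-7a, all below the control samples, and the difference of -0.53 did not pass the test (limma adjusted p = 0.644). It was -0.30 with normexp background correction (adjusted p = 0.773), and without replicate 3 it was called (-0.66, adjusted p = 0.00331). With both agents the signals were 7.18, 6.48 and 7.17, which lay above every let-7a sample. They overlapped control through their own replicate 3 and siSfpq through the siSfpq replicate 3. The difference from siSfpq was -1.57 ± 0.50, or 2.96-fold lower, with an adjusted p of 0.0691 and of 0.0155 with the replicate block. The difference from let-7a was 0.88 (adjusted p = 0.448), and 0.52 with normexp. The change with siSfpq was smaller in the presence of let-7a by 1.03 (95% interval from -2.57 to 0.50, limma adjusted p for the interaction = 0.89). For Sfpq the same interaction was 0.56 (95% interval from -0.04 to 1.16), a smaller drop with let-7a present. Its part in the Dnmt3l value was not tested. Limma called 0 of the 19568 genes for that interaction, with 1175 at an unadjusted p under 0.05. The 0 count changed with the samples and the fit, and with the replicate block it was 4. Without replicate 3, which leaves 2 samples per condition, 4040 genes, or 20.6%, were called for the interaction. Among the 8 genes these were Dnmt3l (-1.45, adjusted p = 0.00114) and Dnmt3a (0.69, adjusted p = 0.0022).

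**Figure D2:**
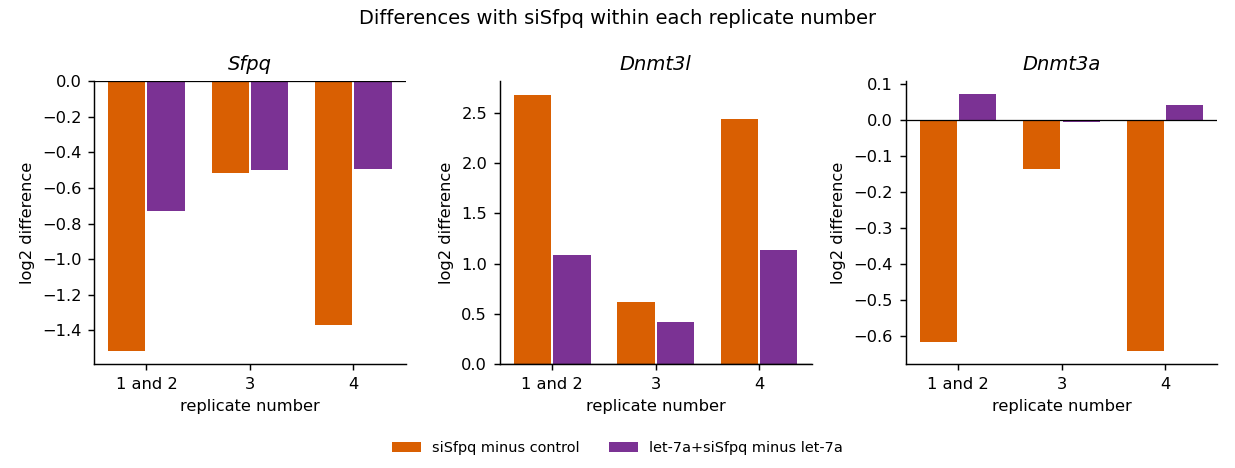
Log2 difference (y axis) of siSfpq minus control and of let-7a+siSfpq minus let-7a within each replicate number (x axis) for Sfpq, Dnmt3l and Dnmt3a. The y range differs between panels. Replicate 3 has the smallest siSfpq minus control difference in all 3 genes, at -0.51, 0.62 and -0.14. For let-7a+siSfpq minus let-7a the differences, in replicate order, are -0.73, -0.50 and -0.49 for Sfpq and 1.09, 0.42 and 1.14 for Dnmt3l, so that replicates 3 and 4 lie close together for Sfpq and apart for Dnmt3l.

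Dnmt3a, which with Dnmt3b places new methylation, was lowest in the 2 siSfpq samples in which its cofactor Dnmt3l was highest. Dnmt3a (chr12:3801559-3914443) had signals of 12.64, 12.83 and 12.60 in control and 12.02, 12.69 and 11.96 in siSfpq. Replicates 1 and 2 and replicate 4 of siSfpq were lower than every control sample, and replicate 3 lay within control. The difference of -0.46 ± 0.16 had a limma adjusted p of 0.0805, and 0.0178 with the replicate block. With let-7a the signals were 12.72, 12.77 and 12.65, close to control (0.02, 95% interval -0.33 to 0.38). With both agents they were 12.79, 12.77 and 12.69, and the difference from siSfpq was 0.52 (adjusted p = 0.0644, and 0.0137 with the block). Over the 12 samples Dnmt3a and Dnmt3l had a Pearson r of -0.92, over points that share the 4 conditions and the paired replicate numbers. In 2 siSfpq samples Dnmt3l was 9.34 and 9.21 and Dnmt3a 12.02 and 11.96. All other points lay at 6.03 to 7.18 and 12.60 to 12.83, so r does not describe them. With let-7a+siSfpq both means were above control (Dnmt3l by 0.35, Dnmt3a by 0.06) and above let-7a (by 0.88 and 0.04). Apart from Dnmt3l, the genes of the set that the block brought past the threshold for siSfpq were Dnmt3a and Tet3, so that 3 of 8 were called where the block called 36.8% of all genes.

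Dnmt3b was lower in let-7a+siSfpq than in siSfpq. The gene (chr2:153649411-153687730) had signals of 12.95, 12.75 and 12.92 in siSfpq and 12.58, 12.56 and 12.59 in let-7a+siSfpq. The groups did not overlap, and the difference was -0.30 ± 0.079 (SE, n = 3 per group), or 1.23-fold, with a limma adjusted p of 0.0419. With 75th percentile scaling in place of quantile normalization it was -0.45 (adjusted p = 0.022). Dnmt3b was 1 of 8 called for let-7a+siSfpq against siSfpq, where 9.17% of all genes were called and 3.64% were called lower (5.67% with 75th percentile scaling). That call was lost without replicate 4 (-0.28, adjusted p = 0.686) and with the 2 conditions fitted alone (adjusted p = 0.187). In control Dnmt3b had 12.82, 12.81 and 12.79, and in let-7a 12.57, 12.69 and 12.62. The let-7a samples were again all lower, and the difference of -0.18 had an adjusted p of 0.22. The 3 Dnmt3b probes moved by -0.29, -0.30 and -0.29 against siSfpq, and none was called alone (adjusted p from 0.0634 to 0.106). With the replicate block 6 of the 8 genes were called in this comparison, where 32.5% of all genes were. Uhrf1, Dnmt3b and Dnmt3l were lower and Dnmt3a, Tet1 and Tet2 higher.

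**Figure D3:**
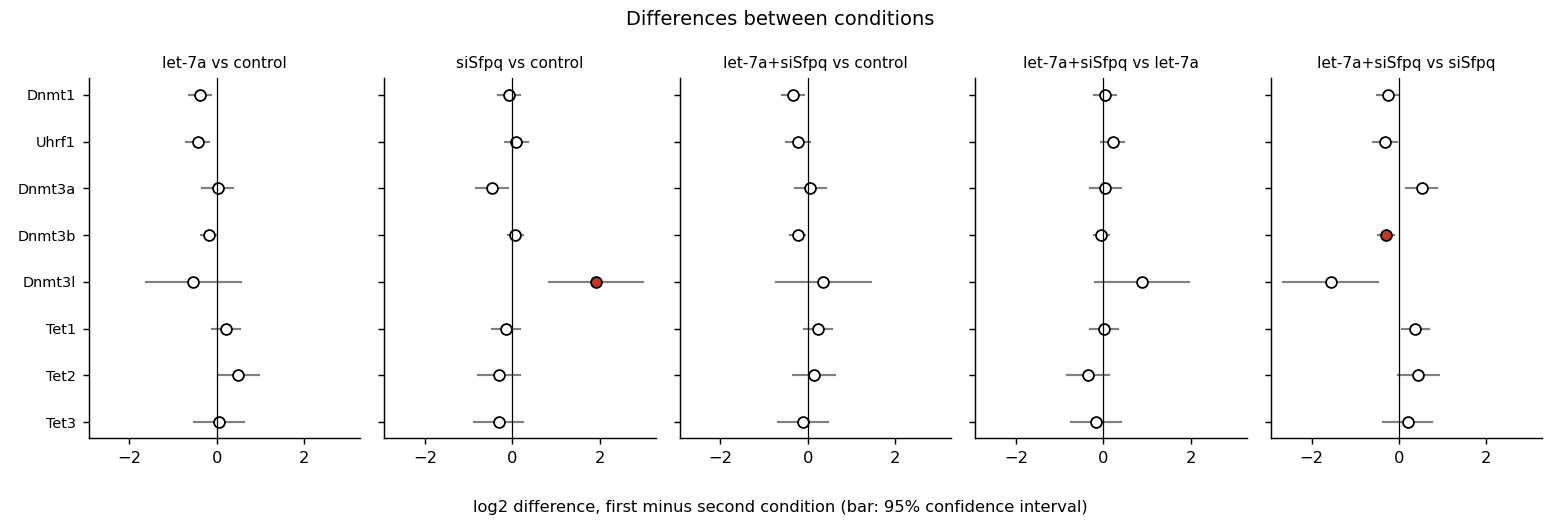
Log2 difference (x axis) of the first minus the second condition for each of the 8 genes (y axis) in 5 comparisons, with 95% confidence intervals from the limma fit without a block over 12 samples. Filled points passed an adjusted p under 0.05, which are Dnmt3l for siSfpq against control (1.91) and Dnmt3b for let-7a+siSfpq against siSfpq (-0.30).

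Among the erasers, Tet2 was higher with let-7a in 2 of 3 samples. Tet2 (chr3:133463677-133545136) had signals of 8.70, 8.58 and 8.54 in control and 9.37, 8.56 and 9.37 in let-7a. Replicate 3 of let-7a lay within control. The difference of 0.50 ± 0.22 had a limma adjusted p of 0.23, and 0.0365 with the replicate block. It was 0.75 without replicate 3 (adjusted p = 0.000662) and 0.33 without replicate 4 (adjusted p = 0.967). In siSfpq the signals were 8.37, 8.16 and 8.38, all below control, with a difference of -0.30 (adjusted p = 0.39). With both agents they were 8.89, 8.41 and 8.95, all above siSfpq, with a difference of 0.44 (adjusted p = 0.212, and 0.0406 with the block). The 3 Tet2 probes agreed in direction in these comparisons.

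Tet1, the Tet enzyme best known from embryonic stem cells (chr10:62804570-62887469), had signals of 10.47, 10.42 and 10.27 in control and 10.79, 10.38 and 10.65 in let-7a. In siSfpq they were 10.19, 10.42 and 10.10, and with both agents 10.79, 10.39 and 10.67. Replicate 3 ran from 10.38 to 10.42 over the conditions, and the groups overlapped in every comparison. The difference was 0.22 for let-7a and -0.15 for siSfpq, neither called (limma adjusted p = 0.47 and 0.538). For let-7a+siSfpq against siSfpq it was 0.38 (adjusted p = 0.117, and 0.0475 with the block). Without replicate 3 these 3 differences were 0.35, -0.23 and 0.58 (adjusted p = 0.0277, 0.0787 and 0.0018). Of the 3 Tet1 probes, A_55_P2122997 was called alone for let-7a+siSfpq against siSfpq (0.53, adjusted p = 0.0359).

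Tet3, prominent in oocytes and neural cells (chr6:83362373-83457208), varied more by replicate number than by condition. Its signals were 6.69, 7.19 and 6.91 in control, 6.65, 7.30 and 6.97 in let-7a, 6.26, 6.97 and 6.62 in siSfpq and 6.36, 7.14 and 6.93 in let-7a+siSfpq. The sample of replicates 1 and 2 was lowest and replicate 3 highest in each condition, and all groups overlapped. Within replicate numbers the difference of siSfpq from control was -0.43, -0.22 and -0.30. The difference of -0.32 ± 0.26 had a limma adjusted p of 0.467 without the block and 0.0372 with it. Its size moved with the processing, at -0.17 with normexp background correction, -0.18 in the authors' value table and -0.48 with no filter on dim probes, none of them called. The 2 probes kept differed in direction with let-7a (0.21 and -0.12).

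**Figure D4:**
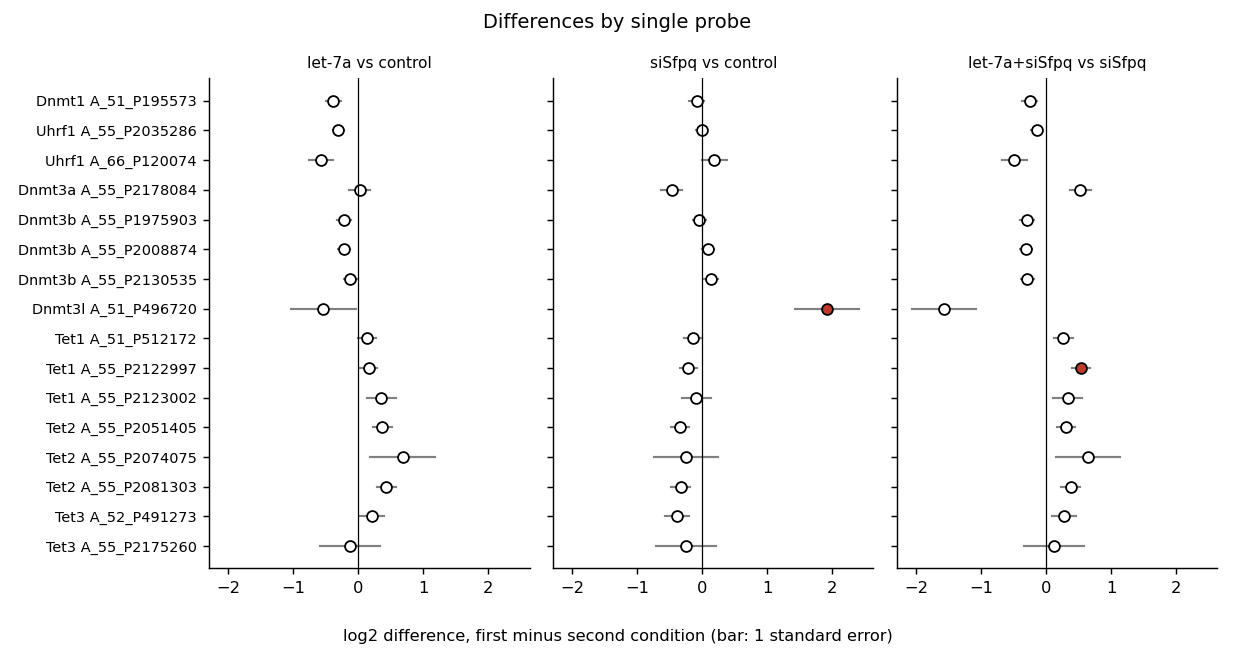
Log2 difference (x axis) at each of the 16 kept probes (y axis, gene and probe name) in 3 comparisons, with bars of 1 SE from a limma fit of single probes. Filled points passed an adjusted p under 0.05. The 3 Dnmt3b probes lie together at -0.29 to -0.30 in the comparison with siSfpq.

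Against control, let-7a+siSfpq called 0 of the 8 genes in the limma fit, where 1.33% of all genes were called, and against let-7a it also called 0, where 2.82% were. At an unadjusted p under 0.05 there were 2 and 0 of the 8, against 11.2% and 15.7% of all genes. Dnmt1 and Dnmt3b were the genes lower than every control sample with both agents, by -0.34 and -0.23 (adjusted p = 0.236 and 0.241). Groups of the 8 genes did not overlap in 4 for let-7a against control, all lower, and over all genes 29% did not overlap and 14.1% were lower. For siSfpq against control it was 2 of 8, with 28.9% over all genes. The counts were 2, 2 and 4 for let-7a+siSfpq against control, let-7a and siSfpq, with 19.4%, 22.3% and 24.5% over all genes. An exact permutation test of 3 samples against 3 cannot go below p = 0.1, which each of these pairs of groups reached. The comparisons share samples, so their counts are not separate evidence.

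The profiles most like those of the called genes were found by Pearson r over the 12 samples among 13035 genes. For Dnmt3l they were Nhp2 (r = 0.99), Nemp1 (r = 0.99) and Rnf115 (r = 0.99). For Dnmt3b they were Prkdc (r = 0.96), Exosc4 (r = 0.95) and Gabpb1 (r = 0.95). The points share conditions and replicate numbers, so that any gene that moved with them would score high. Within the set, Dnmt1 and Uhrf1 had r = 0.84 and Tet1 and Tet2 r = 0.79, whereas Dnmt3b and Tet1 had r = -0.81.

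Other genes of the pathway were grouped by role. Their counts stand against 6.35% of all genes called with let-7a and 12.5% with siSfpq without the block, and against 20.9% and 36.8% with it. Of 6 partners of maintenance, 2 rose with siSfpq and 0 were called with let-7a. Hells, a chromatin remodeller needed for methylation, had 11.03, 11.20 and 11.26 in control and 11.76, 11.65 and 11.85 in siSfpq (0.59, limma adjusted p = 0.0376). Dppa3, which is known to keep Uhrf1 away from chromatin and so limits maintenance, had 5.04, 4.77 and 5.41 in control and 9.14, 5.85 and 9.21 in siSfpq (2.99, adjusted p = 0.0411). Its probe was well above background on 13 of 16 arrays, and its replicate 3 was again nearest to control. The group's median difference was 0.15 with siSfpq against 0.01 over all genes, and -0.32 with let-7a against -0.04. With the block 2 of 6 fell with let-7a, Hells and Cdca7, and 3 of 6 rose with siSfpq, the added one being Uhrf2 (0.30, adjusted p = 0.0153).

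Of 7 genes of the protein families that hold the readers of methylated CpG, 1 rose with let-7a and 1 fell with siSfpq. Zbtb38, a zinc finger protein that binds methylated DNA, had 6.68, 6.52 and 6.65 in control and 7.46, 7.24 and 7.44 in let-7a (0.76, adjusted p = 0.00768). Mbd3, a subunit of the NuRD complex that hardly binds methylated DNA itself, had 13.21, 13.18 and 12.99 in control and 12.61, 12.97 and 12.42 in siSfpq (-0.46, adjusted p = 0.049). The groups did not overlap for either gene, though replicate 3 of siSfpq came close to the lowest control sample of Mbd3. The group's median difference was -0.27 with siSfpq and 0.15 with let-7a. With the block 2 of 7 rose with let-7a, Zbtb4 being added (0.80, adjusted p = 0.0377), and 2 of 7 fell with siSfpq, Mbd4 being added (-0.37, adjusted p = 0.0183).

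Of 8 genes of the methyl donor (S-adenosylmethionine) and folate cycles, 2 fell with let-7a. Ahcy, which clears the inhibitory product of methylation, had 9.88, 9.62 and 9.70 in control and 8.98, 9.17 and 8.82 in let-7a (-0.74, adjusted p = 0.0146), and the folate enzyme Shmt1 fell by 0.56 (adjusted p = 0.0292). With siSfpq 1 fell. Mat2a, which makes S-adenosylmethionine, had 12.90, 12.19 and 12.65 in control and 11.08, 12.17 and 10.87 in siSfpq (-1.21, adjusted p = 0.0247). The samples of Mat2a lay below control in all 3, but by 0.02 in replicate 3. The median difference of the group was -0.46 with let-7a and 0.07 with siSfpq. With the block 5 of 8 fell with let-7a, the added ones being Shmt2, Mat2b, a regulatory subunit without catalytic activity, and Tyms, which makes thymidylate from a folate cofactor and not the methyl donor. With siSfpq and the block Ahcy rose (0.47, adjusted p = 0.0241) while Mat2a fell (adjusted p = 0.0126).

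S phase genes, which follow replication, were tested because maintenance methylation is coupled to it. Of 9 tested of 10, Ccne1 fell by 0.70 and Rrm2 by 0.54 with let-7a (limma adjusted p = 0.0207 and 0.0481), and 0 were called with siSfpq. The median difference with let-7a was -0.18. With the block 3 of 9 fell with let-7a, Mcm6 being added (-0.18, adjusted p = 0.0443), and with siSfpq Mcm6 rose (0.21, adjusted p = 0.0158) and Rrm2 fell (-0.32, adjusted p = 0.0243). Of 11 germline genes known to be silenced by promoter methylation, 5 passed the dim filter and 0 were called in these comparisons in the fit without a block. Sycp3, a protein of the meiotic chromosome axis, had 4.39, 3.48 and 4.59 in control and 7.93, 4.32 and 8.02 in siSfpq. Replicate 3 of siSfpq lay within control, and its difference, given above, was called with the block alone, as was that of Sycp1 (0.37, adjusted p = 0.03). Limma called 0 of 10 genes of demethylation and repair, 0 of 7 Tet cofactors and 0 of 10 genes of H3K9 methylation and imprint protection for let-7a or siSfpq against control. With the block and let-7a, 1 rose and 2 fell in the first group, 1 rose in the second and 4 fell in the third, beside 20.9% of all genes called. With the block and siSfpq, 3 rose in the first, 2 fell in the second, and 1 rose and 1 fell in the third, each a share below the 36.8% of all genes called.

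**Figure D5:**
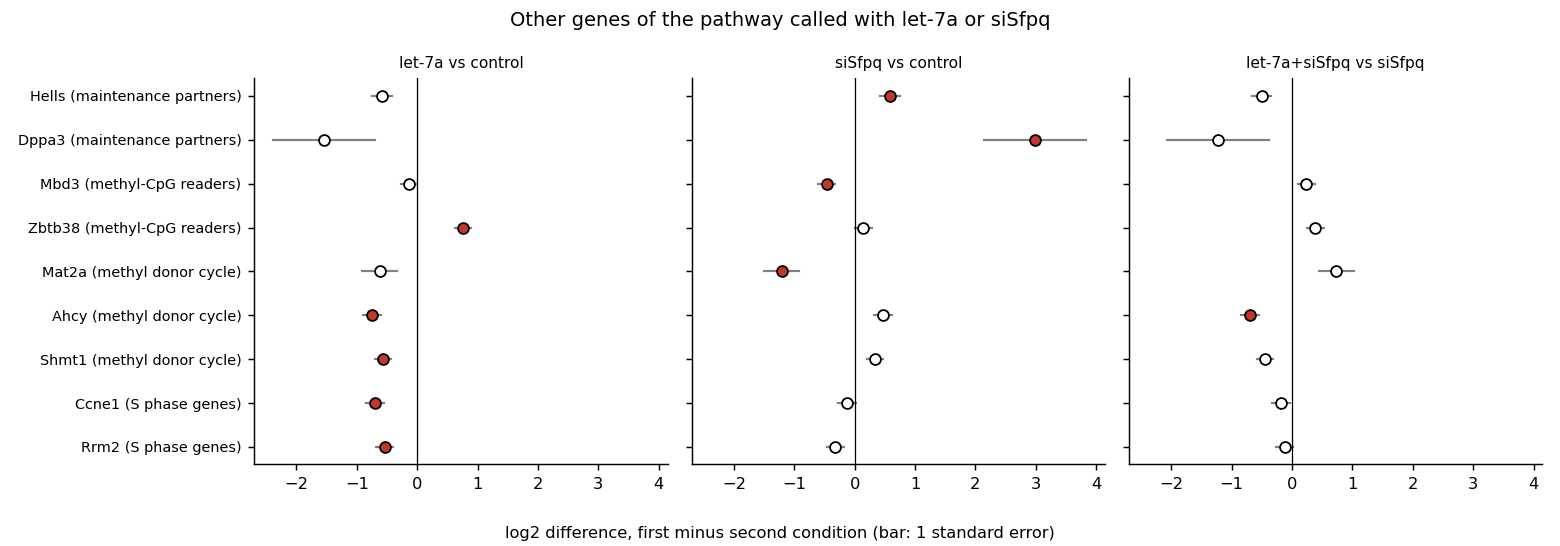
Log2 difference (x axis) of the pathway genes called for let-7a or siSfpq against control (y axis, with the group of each) in 3 comparisons, with bars of 1 SE from the limma fit. Filled points passed an adjusted p under 0.05. Dppa3 rises most, by 2.99 with siSfpq.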

How the data were processed

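P19 cells of 4 conditions were profiled on 16 arrays of 1 colour. The authors deposited spot intensities from Agilent Feature Extraction 10.7.3.1. Per the file headers, the processed intensity is background-subtracted and spatially detrended, and it is not normalized between arrays. A second deposited table holds the authors' log2 values, which follow log2 of the median spot intensity (median r 0.999884 over arrays) and were quantile normalized with limma per the methods. Arrays held 33733 to 38464 of 59305 spots well above background, and the number of arrays limits the precision.

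Here the processed intensities were log2-transformed and quantile normalized with limma 3.58.1 in R 4.3.3. Spots with outlier flags were left out, and a probe had to be well above background in every array of 1 or more conditions (25852 of 55681). Probes that carry only a region's name (16194) were dropped, others were named through RefSeq, and 7748 kept the name in the file, so the 19568 genes include transcripts known only by an identifier. Probes of a gene were averaged. The methods name 3 replicates where 4 arrays per condition are present. One limma fit with a trend held 12 samples and 6 contrasts, with Benjamini-Hochberg adjustment over all genes. Replicates 1 and 2 lay on one slide and 3 and 4 on another in every condition. The number pairs samples by the data: same-numbered pairs had r 0.293 to 0.713, and other pairs -0.628 to 0.181. Tested on simulated data for let-7a against control over 19568 genes, the fit called 130 of 200 genes changed by 1 log2 unit and 8 unchanged genes. The simulated samples had independent noise with 1 spread per gene, unlike these paired samples, so those rates need not hold here.

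The members and lists were chosen with earlier results of these data known. Of each pathway list, genes called for let-7a or siSfpq against control were named, at most 4 per list and comparison; genes called with the block alone were named after their values were seen. Some genes of the lists of readers and of the methyl donor cycle are not reported here and were left out of the counts. Alternatives were the scaling, background correction, dim filter, slide or replicate number as a block, leaving out a replicate, counting 16 arrays, the authors' table and fitting only the groups compared; single probes and 1 slide alone were chosen after seeing the data. Probe coordinates are mm9 per the file headers, and gene coordinates GRCm38.p6.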

Additional observations from a re-analysis of the deposited data

How the results depend on the processing

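The call of Dnmt3l with siSfpq and that of Dnmt3b for let-7a+siSfpq against siSfpq kept their direction in every alternative run. The replicate block cannot change any of the 48 differences of the 8 genes, since every condition holds the same replicate numbers, and it alters only their SE. It took 10 past the threshold, so that it called 3 of 8 genes for let-7a, 3 for siSfpq and 6 for let-7a+siSfpq against siSfpq. It changed no other call. For let-7a against control, 75th percentile scaling called 1 gene and the slide as a block called 1, Uhrf1 in both. With 16 arrays counted separately the counts were 4 for let-7a, 2 for siSfpq, 2 for let-7a+siSfpq against control and 6 against siSfpq. For siSfpq against control, 0 were called with no filter on dim probes, and 0 for it and for let-7a+siSfpq against siSfpq with only the groups compared or with replicates 3 and 4 only. Leaving out 1 replicate gave 0 to 6 calls for let-7a, 0 to 3 for siSfpq, 0 to 5, 0 to 2 and 0 to 7 for let-7a+siSfpq against control, let-7a and siSfpq, and 0 to 2 for the interaction. The highest counts came without replicate 3 and the 0 counts of the called comparisons without replicate 4, each of which leaves 2 samples per condition.

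Over all genes the counts moved likewise, down without replicate 4 and up without replicate 3: from 1242 to 2 and 5488 for let-7a, from 2443 to 0 and 9213 for siSfpq, from 260 to 0 and 3277, from 551 to 0 and 4866, and from 1794 to 0 and 8858 for let-7a+siSfpq against control, let-7a and siSfpq, and from 0 to 4040 for the interaction. With the block they were 4095, 7203, 1466, 2406, 6351 and 4, and with 16 arrays 3654, 6768, 1404, 2595, 6073 and 158. Fitting only the groups compared called 0 for siSfpq and 198 for let-7a+siSfpq against siSfpq, and no filter on dim probes called 1310, 166, 262 and 848 for siSfpq and the 3 comparisons of let-7a+siSfpq, and 4 for the interaction. Replicates 3 and 4 alone called 3 for let-7a and 0 elsewhere. For let-7a+siSfpq against siSfpq the split of 1082 higher and 712 lower became 1103 and 1109 with 75th percentile scaling.

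Reversals were small values, none of them called. With 75th percentile scaling, Dnmt3a with let-7a was -0.053 and Dnmt3b for let-7a+siSfpq against let-7a 0.029; with normexp background, Tet3 with let-7a was -0.016. The Tet2 interaction ran from -0.21 to 0.057 with 1 replicate left out (above 0 without replicate 1 or 4) and was 0.0017 with replicates 3 and 4 only, which also gave Dnmt3a with let-7a -0.0054 and Dnmt1 for let-7a+siSfpq against let-7a -0.020. Leaving out 1 replicate, Dnmt1 with siSfpq ran from -0.13 to 0.035 (above 0 without replicate 3). By single probe, Tet3 A_55_P2175260 with let-7a was -0.12, Dnmt3b A_55_P1975903 and Uhrf1 A_55_P2035286 with siSfpq were -0.041 and -0.0080, Tet2 A_55_P2051405 for let-7a+siSfpq against control was -0.027, Dnmt3b A_55_P2008874 against let-7a was 0.0059, Tet1 A_51_P512172 and A_55_P2123002 against let-7a were -0.011 and -0.12, and the Tet1 interaction at A_55_P2123002 was -0.025. The cause was not tested. Signal over background left out 1 of the 3 Tet3 probes.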
